A study of Homo sapiens with 4 samples.

Results

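The BCL2 family decides whether a stressed cell opens its mitochondrial outer membrane and dies by apoptosis. The 10 family genes described here, taken by symbol from the annotation, are BCL2L11, BMF, BBC3, PMAIP1, BID, BAX, BAK1, BCL2L1, MCL1 and BCL2, out of 57891 genes whose annotated transcript rows could be summed. RNA was measured by poly(A) sequencing in AC16, an established human line made by fusing adult ventricular cardiomyocytes with transformed fibroblasts and labelled as cardiomyocyte. The 4 groups are untreated cells (0 min) and cells kept for 10, 30 or 360 min in 10 nM doxorubicin, an anthracycline that poisons topoisomerase II, with 1 library in each. Treated cells were washed and given the drug in fresh medium without serum. Nothing in the labels tells if the 0 min cells had also been taken off serum, and effects of doxorubicin, of fresh medium and of serum withdrawal cannot be told apart.

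The family has 3 roles. BH3-only proteins (BIM from BCL2L11, BMF, PUMA from BBC3, NOXA from PMAIP1, and BID) sense stress, the effectors BAX and BAK form pores in the outer membrane, and the guardians BCL-XL from BCL2L1, MCL1 and BCL2 hold both other kinds in check. PUMA and NOXA are well known to respond to DNA damage, and BIM and BMF genes are known to respond to FOXO factors and to loss of growth factors. In adult heart muscle MCL1 is needed for survival, and BAX has been tied to anthracycline injury of the heart.

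The short BH3 helix is what the members share, and it fits into a groove of the guardians. Its core has a leucine, any 3 residues, a glycine or alanine, and an aspartate. The coding bases of that core are shown for each member because several transcripts described here differ in whether they keep it. Each line runs 5′ to 3′ on the coding strand, was read from GENCODE 29 transcripts on GRCh38, and has the leucine codon and the glycine or alanine and aspartate codons in capitals.
BCL2L11 BH3: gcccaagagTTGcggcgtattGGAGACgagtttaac
BMF BH3: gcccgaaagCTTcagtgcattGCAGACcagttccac
BBC3 BH3: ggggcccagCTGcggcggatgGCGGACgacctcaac
PMAIP1 BH3: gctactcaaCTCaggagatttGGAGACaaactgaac
BID BH3: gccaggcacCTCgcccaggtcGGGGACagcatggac
BAX BH3: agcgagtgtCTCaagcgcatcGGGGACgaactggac
BAK1 BH3: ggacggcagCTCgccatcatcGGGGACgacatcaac
BCL2L1 BH3: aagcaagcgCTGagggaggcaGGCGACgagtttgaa
MCL1 BH3: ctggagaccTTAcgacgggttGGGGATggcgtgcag
BCL2 BH3: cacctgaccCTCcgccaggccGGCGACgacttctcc
The pattern of these residues is common by itself: 4889 of 19512 genes with a complete coding sequence (25.1%) hold it somewhere. In the reference transcript chosen for each member the pattern occurred at a single place, which was taken as the core. Other transcripts of that gene were counted as keeping the core only where they read the pattern in frame at the same genome position.

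Effectors and guardians also carry a BH1 region, part of the groove, whose core is the run asparagine, tryptophan, glycine, arginine. That run is rare, being found in 21 of the same 19512 genes (0.108%). It is shown for the 5 members that have it, with the 4 codons in capitals, because a short form of BCL-XL and a short form of MCL1 lack it.
BAX BH1: ggcaacttcAACTGGGGCCGGgttgtcgcc
BAK1 BH1: agtggcatcAATTGGGGCCGTgtggtggct
BCL2L1 BH1: gatggggtaAACTGGGGTCGCattgtggcc
MCL1 BH1: ggcgtaacaAACTGGGGCAGGattgtgact
BCL2 BH1: gacggggtgAACTGGGGGAGGattgtggcc
On GRCh38 the BH3 core of BCL2L11 lies at chr2:111150094-111150129 (plus strand), that of BBC3 at chr19:47226582-47226617 (minus strand) and that of BCL2L1 at chr20:31721925-31721960 (minus strand). The BH1 core of BCL2L1 lies at chr20:31721793-31721822 (minus strand).

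The libraries held 55156612 to 56875881 deposited counts, taken as 13789153 to 14218970 read pairs, and 88.2% to 89.2% of counts fell in annotated transcripts. Of 12 cardiomyocyte markers, 5 reached 1 CPM (the count scaled to a library total of 1000000) in each library, namely NPPB (37.1 to 122 CPM), MYL2 (27.7 to 37.9 CPM), TTN (11.8 to 20.3 CPM), RYR2 (7.54 to 12.3 CPM) and MYL7 (1.02 to 2.01 CPM). The 12 summed to 92.4, 126, 184 and 126 CPM at 0, 10, 30 and 360 min, highest at 30 min, and the part of this in any 30 min result was not tested. ACTC1 and PLN were at 0 in all 4, MYH6 was at 0 at 360 min, and TNNT2 was at most 0.16 CPM. Fibroblast markers were abundant, 6 of 10 reaching 1 CPM, with DCN and LUM at 0, and summed to 10594, 13987, 9121 and 9039 CPM at 0, 10, 30 and 360 min. Their sum was thus highest at 10 min, and its part in any 10 min result below was not tested. Of 6 immune markers 1 to 3 reached 1 CPM and 2 or 3 were at 0 (sum 30.8 to 59.8 CPM, the top value at 10 min), of 6 endothelial markers 1 reached it and 1 or 2 were at 0 (sum 4.54 to 11.7 CPM, also highest at 10 min), and of 5 epithelial markers 2 reached it and at most 1 was at 0 (sum 465 to 517 CPM).

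Per unit of transcript length, BAX was the most abundant member and BCL2L11 the least. The level of each gene on this scale is its TPM (the count per annotated base, scaled so that all transcripts of a library sum to 1000000), averaged over the 4 libraries. BAX averaged 226 TPM and ranged from 215 to 244 TPM, above every value of any other member. Below it PMAIP1 (99.3 to 168 TPM), MCL1 (85.2 to 159 TPM) and BCL2L1 (94.5 to 118 TPM) had ranges that overlapped, so their order is not fixed by these libraries. BAK1 stood alone at 50.4 to 64.1 TPM. BID (19.1 to 25.8 TPM), BBC3 (12.9 to 26.1 TPM) and BMF (5.24 to 25.2 TPM) overlapped. BCL2 (5.14 to 8.35 TPM) and BCL2L11 (3.19 to 7.83 TPM) were lowest and also overlapped with BMF. By role, the 5 BH3-only genes summed to 150, 198, 223 and 188 TPM at 0, 10, 30 and 360 min, the 2 effectors to 306, 269, 270 and 292 TPM, and the 3 guardians to 187, 221, 281 and 224 TPM. The BH3-only and guardian sums were both highest at 30 min, while the effector sum was highest at 0 min. Among the genes of the first and last sums, only PMAIP1 (168 TPM) and MCL1 (159 TPM) were themselves highest at 30 min. BMF and BBC3 were highest at 10 min, BCL2L11 at 0 min, and BID, BCL2L1 and BCL2 at 360 min, so the 30 min maximum is not a trait of the whole role.

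**Figure D1:**
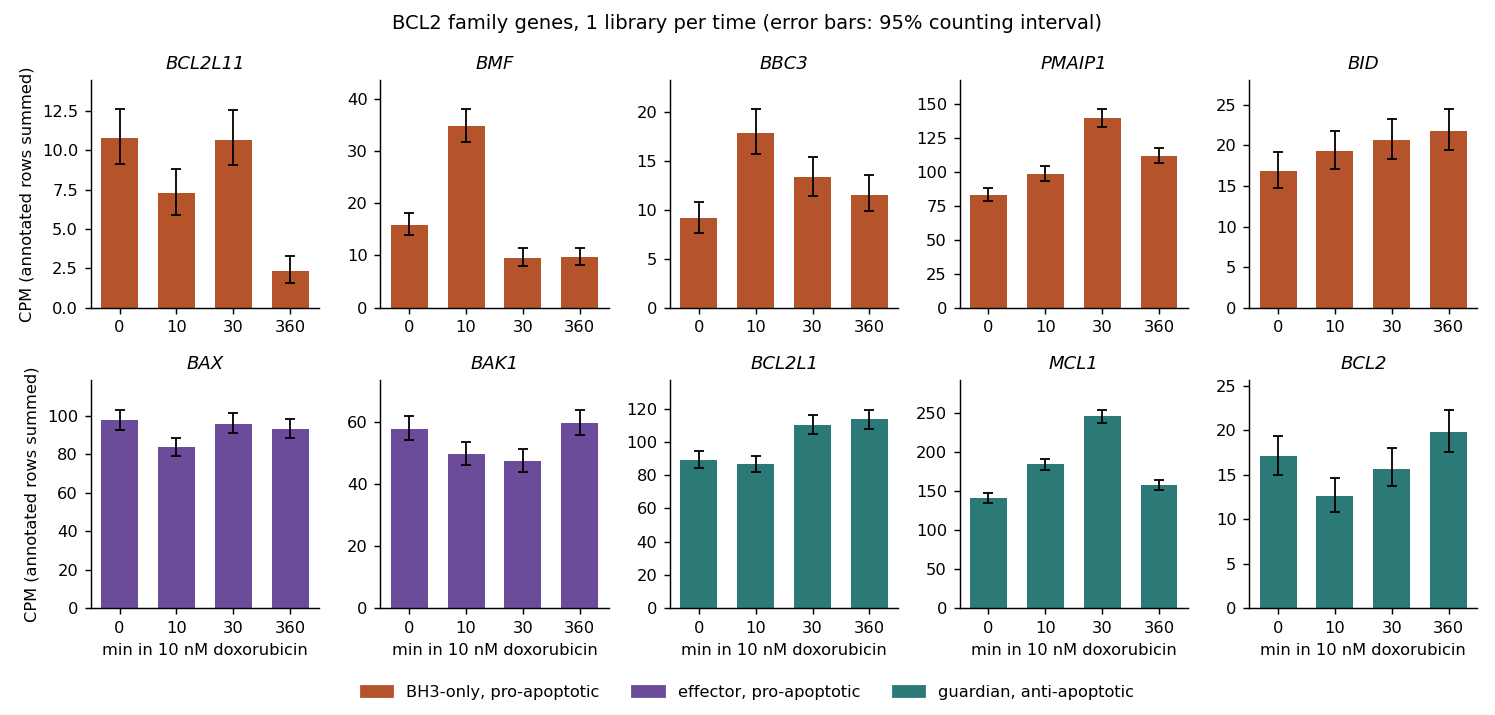
Level of each BCL2 family gene in CPM (vertical axis, linear, from 0, scaled per gene) in the single library of each time in 10 nM doxorubicin (horizontal axis, min, not to scale), with 95% counting intervals as error bars and the role as colour. BMF peaked at 10 min (34.7 CPM), PMAIP1 and MCL1 at 30 min (139 and 246 CPM), and BCL2L11 was lowest at 360 min (2.34 CPM).

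Against the 0 min library few members moved 2-fold. A gene was counted as past the size rule with a ratio of at least 2-fold in CPM, at least 5 CPM in 1 of the 2 libraries compared, and a 95% exact counting interval that excluded 1. With 1 library at each time there is no replicate check and no p-value, each comparison is of 2 libraries and not of 2 conditions, and an interval covers counting error only. All 3 comparisons with 0 min share that library. In bulk RNA, fewer cells of a kind and less RNA per cell cannot be told apart.

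At 10 min, 1 of 10 members was past the rule, BMF, which was higher. Of all 11892 genes compared, 14.5% were past it at that time (7.69% higher and 6.85% lower), so the members' count lies close to the background. Intervals lay above 1 for 4 members and below 1 for 4, and the median log2 ratio of the members was 0.07, beside -0.04 for all genes compared. At 30 min no member was past the rule, where 6.8% of 11533 genes were (3.55% higher and 3.25% lower). Intervals lay above 1 for 5 members and below 1 for 2, and the median log2 ratio was 0.14, beside -0.01 for all genes. At 360 min, 1 of 10 members was past it, BCL2L11, which was lower, and 6.59% of 11511 genes were (3.26% higher and 3.34% lower). Intervals again lay above 1 for 5 members and below 1 for 2, with a median log2 ratio of 0.19 beside 0.01 for all genes.

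**Figure D2:**
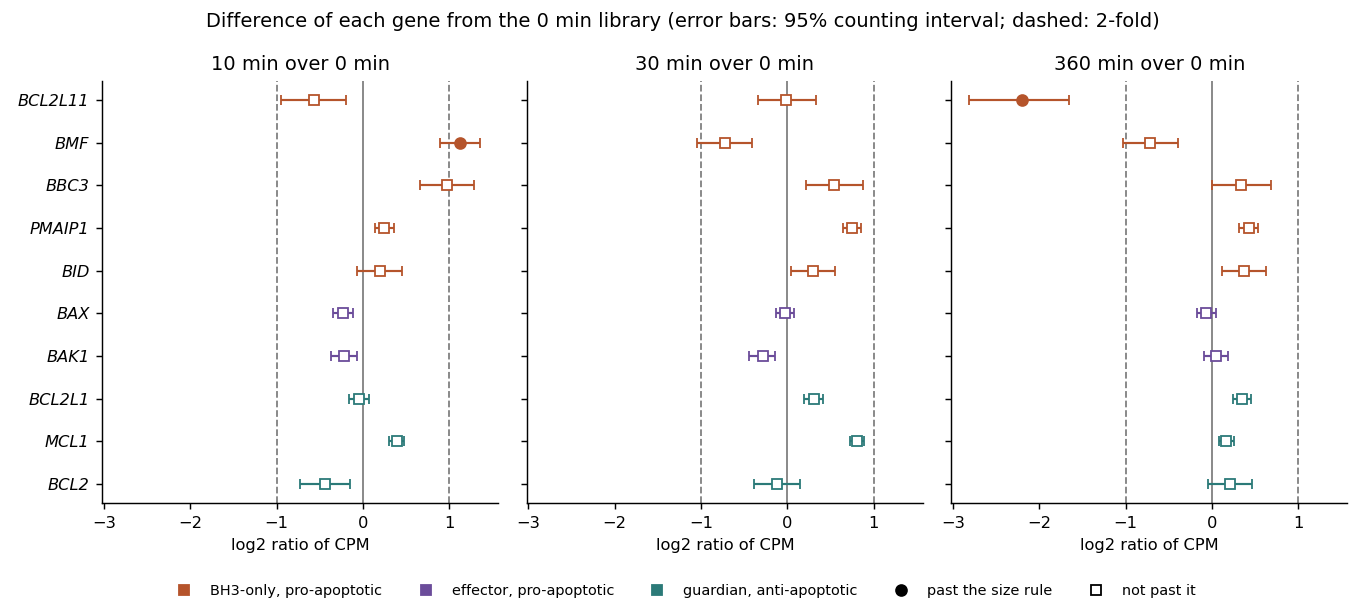
Log2 ratio of CPM (horizontal axis) of each gene at 10, 30 and 360 min over 0 min, with 95% counting intervals and dashed lines at 2-fold. Filled circles mark the members past the size rule, BMF at 10 min (log2 ratio 1.13) and BCL2L11 at 360 min (-2.20), and open squares mark the rest.

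In CPM, BCL2L11 showed the largest ratio to 0 min of any member. BIM, its product, binds all guardians and can activate BAX and BAK directly. BCL2L11 (ENSG00000153094, chr2:111119378-111168447, plus strand) was at 10.8, 7.28, 10.7 and 2.34 CPM at 0, 10, 30 and 360 min, from 153, 101, 148 and 32 read pairs. The 360 min library was the low one, with an interval of 1.59 to 3.28 CPM that no other library's interval reached. At 360 min it was 4.61-fold lower than at 0 min (3.15 to 7.02) and 4.56-fold lower than at 30 min (3.13 to 6.99). At 10 min it was at 0.676 of the 0 min level (0.520 to 0.874), and at 30 min at 0.990 (0.789 to 1.26). On the length scale the difference was smaller, at 3.19 TPM at 360 min against 7.83 TPM at 0 min, or 2.45-fold. On that scale BMF varied more, with a range of 4.81-fold over the 4 libraries. BCL2L11 shares 10.9% of its exon bases with MIR4435-2HG on the other strand, which was at 74.3, 106, 73.1 and 71.3 CPM at 0, 10, 30 and 360 min, and strand use in counting is not given in the sources used here, so its values are uncertain. MIR4435-2HG as a whole gene did not share the low 360 min level, and its part in the BCL2L11 values was not tested.

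BMF differed in opposite directions at early and late times. Its product is held on the cytoskeleton in healthy cells and released under stress and loss of attachment. BMF (ENSG00000104081, chr15:40087890-40108892, minus strand) was at 15.9, 34.7, 9.61 and 9.68 CPM at 0, 10, 30 and 360 min. The 10 min library stood above the other 3, and the 30 and 360 min libraries below 0 min. Its ratio to 0 min was 2.19-fold at 10 min (1.86 to 2.57), 0.605 at 30 min (0.485 to 0.753) and 0.610 at 360 min (0.490 to 0.760). At 30 min it was 3.61-fold lower than at 10 min (2.97 to 4.400), which was past the rule. All 4 levels came mainly from BMF-201, which held 93.6% to 98.3% of the gene's counts.

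BBC3, the PUMA gene, was higher at 10 min by a ratio just under 2-fold. BBC3 (ENSG00000105327, chr19:47220822-47232766, minus strand) was at 9.16, 17.9, 13.3 and 11.6 CPM at 0, 10, 30 and 360 min. The ratio to 0 min was 1.96 at 10 min (1.58 to 2.44), 1.46 at 30 min (1.16 to 1.84) and 1.26 at 360 min (1.0006 to 1.61). So the difference was largest at 10 min and, at 360 min, the interval barely excluded 1. The locus also holds 1 assembled, unannotated model with 0.018 CPM at 360 min against 3.60 CPM at 0 min, and with it counted the log2 ratio at 360 min was -0.14, of the other sign.

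PMAIP1, the NOXA gene, was the most abundant BH3-only gene and was higher in each treated library without reaching 2-fold. NOXA chiefly binds MCL1 and promotes its degradation. PMAIP1 (ENSG00000141682, chr18:59899948-59904306, plus strand) was at 83.0, 98.5, 139 and 112 CPM at 0, 10, 30 and 360 min, and every treated library was above 0 min. Its ratio to 0 min was 1.19 at 10 min (1.098 to 1.29), 1.68 at 30 min (1.56 to 1.81) and 1.34 at 360 min (1.24 to 1.45). BID, whose product is cut by caspase-8 and links death receptors to mitochondria, was at 16.9, 19.3, 20.7 and 21.8 CPM at 0, 10, 30 and 360 min. Its interval excluded 1 at 30 min (1.23, 1.03 to 1.46) and at 360 min (1.29, 1.09 to 1.54), and held 1 at 10 min (1.14, 0.956 to 1.37). BID (ENSG00000015475) lies at chr22:17734138-17774770 on the minus strand.

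The effectors stayed within 1.3-fold of 0 min in every library. BAX (ENSG00000087088, chr19:48954815-48961798, plus strand), whose product moves from cytosol to mitochondria, was at 98.0, 83.7, 96.0 and 93.4 CPM at 0, 10, 30 and 360 min. Its ratio to 0 min was 0.854 at 10 min (0.789 to 0.924), and the intervals at 30 and 360 min held 1 (0.980, 0.908 to 1.06, and 0.954, 0.883 to 1.03). BAK1 (ENSG00000030110, chr6:33572547-33580293, minus strand), whose product sits in the outer membrane, was at 57.9, 49.8, 47.4 and 59.8 CPM at 0, 10, 30 and 360 min. It was lower at 10 min (0.860, 0.775 to 0.952) and at 30 min (0.819, 0.737 to 0.907), and at 360 min the interval held 1 (1.03, 0.935 to 1.14).

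Of the guardians, MCL1 showed the largest difference, at 30 min. MCL1 protein and mRNA are both short-lived. MCL1 (ENSG00000143384, chr1:150574551-150579738, minus strand) was at 141, 185, 246 and 158 CPM at 0, 10, 30 and 360 min. The 30 min library was the high one, and 0 min the low one. Its ratio to 0 min was 1.31 at 10 min (1.24 to 1.39), 1.75 at 30 min (1.65 to 1.85) and 1.12 at 360 min (1.06 to 1.19), and the 360 min level was 0.642 of that at 30 min (0.608 to 0.678). BCL2L1 (ENSG00000171552, chr20:31664452-31723989, minus strand) was at 89.4, 86.8, 110.3 and 114 CPM at 0, 10, 30 and 360 min. The 2 later libraries were above the 2 earlier ones, with a ratio to 0 min of 1.23 at 30 min (1.14 to 1.33) and 1.27 at 360 min (1.18 to 1.37). BCL2L1 shares 43.0% of its exon bases with ABALON on the other strand, which was at 11.8, 10.95, 13.9 and 18.7 CPM at 0, 10, 30 and 360 min, so BCL2L1 values are uncertain in the same way as those of BCL2L11. BCL2 (ENSG00000171791, chr18:63123346-63320128, minus strand), the founding guardian, was at 17.1, 12.6, 15.7 and 19.8 CPM at 0, 10, 30 and 360 min, lower at 10 min (0.739, 0.603 to 0.898), with intervals that held 1 at 30 and 360 min (0.919, 0.762 to 1.11, and 1.16, 0.971 to 1.38).

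Between treated libraries, 1 member was past the rule for 30 against 10 min (BMF, lower), where 14.4% of 11902 genes were (6.86% higher and 7.54% lower), and 1 for 360 against 30 min (BCL2L11, lower), where 6.75% of 11502 genes were (3.26% higher and 3.49% lower). For 30 against 10 min the intervals of 6 members lay above 1 and of 2 below. For 360 against 30 min those of 2 lay above 1 and of 3 below.

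Single transcripts moved more than whole genes. The deposited values divide the reads of a gene among transcripts that share most of their bases, so a transcript's value is an estimate whose error goes beyond counting. Of 92 annotated transcripts of the members, 90 were in the deposited values and 76 had counts. Past the same size rule were 4 of 18 of the members' transcripts at 10 min, 6 of 20 at 30 min and 4 of 17 at 360 min, each against 0 min. Past it were also 5 of 20 for 30 against 10 min and 7 of 20 for 360 against 30 min. Over all annotated transcripts the shares were 37.2%, 30.8% and 29.9% against 0 min, 37.9% for 30 against 10 min and 30.9% for 360 against 30 min. The members' shares lay near or below these, apart from 360 against 30 min, where theirs was slightly above. Each gene below is described with the transcripts that held at least 10% of its counts in some library, and a few smaller forms with known products.

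BCL2L11 counts lay mainly in BCL2L11-206 at 0 min and in BCL2L11-221 at 30 min, with no single main transcript at 10 or 360 min. BCL2L11-206 encodes BIM-EL, the longest usual form, with 198 codons. It was at 9.18, 1.997, 2.70 and 0.272 CPM at 0, 10, 30 and 360 min, or 85.2%, 27.4%, 25.2% and 11.6% of the gene's counts. Against 0 min it was 4.60-fold lower at 10 min (3.00 to 7.09), 3.40-fold lower at 30 min (2.35 to 5.06) and 33.7-fold lower at 360 min (12.02 to 117). BCL2L11-221, with 169 codons, instead held 55.3% of counts at 30 min, and was at 0.018, 1.097, 5.90 and 0.290 CPM at 0, 10, 30 and 360 min. These transcripts differ by an exon of 125 bases at chr2:111153780-111153904, present in BCL2L11-221. The junctions that tell them apart are shown next, with the exon before the junction in lower case and the exon after it in capitals.
BCL2L11-206 junction: tactatgcaaggaggGTATTTTTGAATAAT
BCL2L11-221 junction: tactatgcaaggaggTTAGAGAAATAGAGG
Both keep the BH3 core, which lies upstream of the junction. At 10 min BCL2L11-220 (109 codons, BH3 kept) was level with BCL2L11-206, at 27.9% and 27.4% of counts from 28 read pairs each. At 360 min BCL2L11-211, annotated as a target of nonsense-mediated decay, held 16.3% of counts (5.275% to 32.8%) from 5 read pairs, beside 4 each for BCL2L11-221, BCL2L11-206 and BCL2L11-218, so no order can be given. BCL2L11-218 held up to 10.9% and BCL2L11-223, which lacks the core, up to 10.6%.

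**Figure D3:**
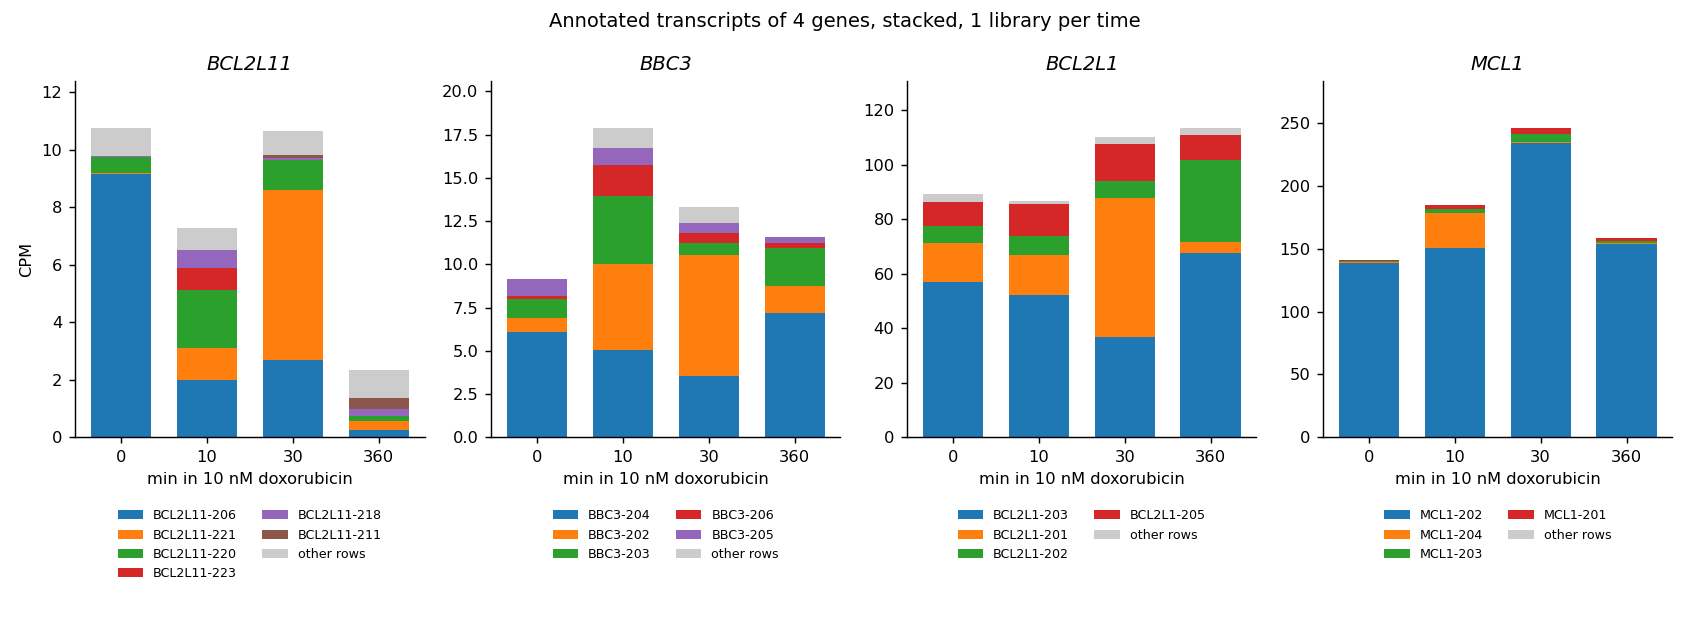
CPM of annotated transcripts (vertical axis, linear, from 0, stacked, 1 colour per transcript within a panel, grey for all other rows) of BCL2L11, BBC3, BCL2L1 and MCL1 at 0, 10, 30 and 360 min in 10 nM doxorubicin (horizontal axis, not to scale), 1 library per time. BCL2L11-206 made up 11.6% of its gene at 360 min, against 85.2% at 0 min, and MCL1-204 was prominent at 10 min (27.6 CPM).

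Counted over all annotated protein-coding rows that keep the BH3 core, BCL2L11 was lower at 360 min by a larger factor than the whole gene. These rows held 93.8%, 84.9%, 94.2% and 55.8% of its counts at 0, 10, 30 and 360 min, or 10.1, 6.19, 10.06 and 1.31 CPM. At 360 min their level was 7.75-fold lower than at 0 min (4.74 to 13.5). These rows leave out BCL2L11-211, which reads the core in frame and was at 0 CPM at 0 min and 0.381 CPM at 360 min. With it counted the factor would be smaller. The share at 360 min had a wide interval, 37.7% to 73.6%, since it came from 32 read pairs.

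In BBC3 the share of rows that keep the BH3 core was higher at 10 and 30 min than at 0 min. BBC3-204 (261 codons) holds the bases of the core in its RNA, but its annotated reading frame does not read them as BH3, and it led at 0 and 360 min with 66.4% and 62.1% of counts. At 10 min it was level with BBC3-202, at 28.1% and 27.9% of counts from 70 read pairs each. BBC3-202 (131 codons) and BBC3-203 (193 codons) read the core in frame. BBC3-202 was at 0.809, 5.00, 7.02 and 1.58 CPM at 0, 10, 30 and 360 min and led at 30 min with 52.6% of counts. BBC3-202 was 6.18-fold higher at 10 min than at 0 min (3.21 to 12.1) and 8.68-fold higher at 30 min (4.55 to 16.7). BBC3-203 was at 1.13, 3.90, 0.669 and 2.16 CPM at 0, 10, 30 and 360 min, so both in-frame rows were above 0 min at 10 min, and BBC3-202 alone was at 30 min. The junctions of BBC3-202 and BBC3-204 share their upstream exon, in lower case, and differ in the exon joined to it, in capitals.
BBC3-202 junction: cctgccagatttgtgGTCCTCAGCCCTCGC
BBC3-204 junction: cctgccagatttgtgGCCCCAGGGAGCGCC
An exon of 289 bases at chr19:47228158-47228446, present in BBC3-204, separates these forms. Rows with the core in frame held 21.1% (14.8% to 29.6%), 49.7% (43.4% to 56.2%), 57.7% (50.1% to 64.8%) and 32.2% (25.3% to 40.3%) of BBC3 counts at 0, 10, 30 and 360 min. Their level was 1.93, 8.90, 7.69 and 3.73 CPM at 0, 10, 30 and 360 min. It was 4.60-fold higher at 10 min than at 0 min (2.99 to 7.09), 3.98-fold higher at 30 min (2.55 to 6.14), and 2.06-fold lower at 360 min than at 30 min (1.45 to 2.89). Rows annotated as retained introns (BBC3-205 and BBC3-206) held 5.63% to 15.6% of counts. Among annotated rows, the 10 and 30 min libraries were thus the ones in which counts with an in-frame BH3 core were high, in share and in level. The assembled model at this locus is outside these values, at 3.60, 4.17, 2.30 and 0.018 CPM at 0, 10, 30 and 360 min. Whether it keeps the core was not tested, so shares and ratios that include it are not known.

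**Figure D4:**
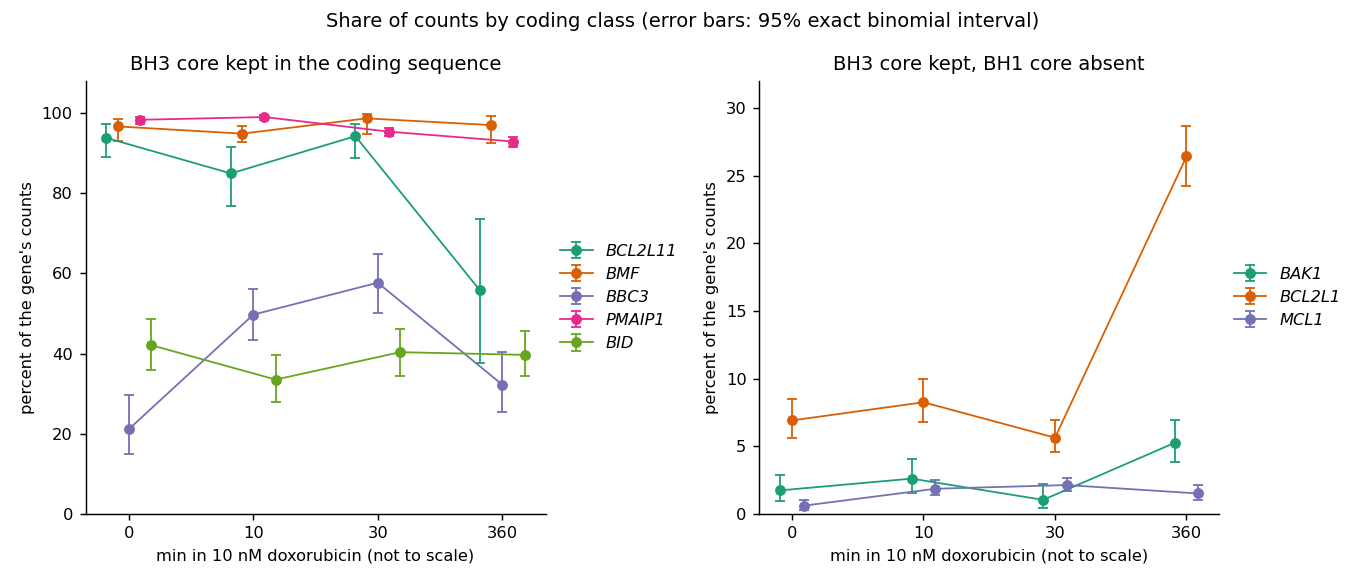
Percent of a gene's counts (vertical axes, linear, from 0) in annotated protein-coding rows that keep the BH3 core, for the 5 BH3-only genes (left), and in rows that keep the BH3 core but lack the BH1 core, for BAK1, BCL2L1 and MCL1 (right), at 0, 10, 30 and 360 min (horizontal axes, not to scale), with 95% exact binomial counting intervals. The BBC3 share was 57.7% at 30 min, the BCL2L11 share was 55.8% at 360 min, and the BCL2L1 share without BH1 was 26.4% at 360 min.

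BCL2L1 differed in transcript make-up at 30 min, between the BCL-XL transcripts BCL2L1-201 and BCL2L1-203, and at 360 min in the short form BCL-XS. The short form, BCL2L1-202 (170 codons), lacks 189 bases at chr20:31721655-31721843 that hold the BH1 core, keeps the BH3 core, and is known to promote death when expressed. It was at 6.17, 7.16, 6.205 and 30.0 CPM at 0, 10, 30 and 360 min. The first 3 libraries lay close together, and the 360 min library was 4.87-fold above 0 min (3.85 to 6.18). Its share of BCL2L1 counts was 6.90%, 8.25%, 5.63% and 26.4% (24.3% to 28.7%) at 0, 10, 30 and 360 min. BCL2L1-201, a BCL-XL transcript of 233 codons that shares its downstream exon, was at 14.6, 14.7, 51.1 and 4.01 CPM. It was 3.51-fold higher at 30 min than at 0 min (3.00 to 4.12) and 3.63-fold lower at 360 min than at 0 min (2.70 to 5.01). The capitals below mark the exon that both join.
BCL2L1-202 junction: cagagctttgaacagGATACTTTTGTGGAA
BCL2L1-201 junction: gagaacggcggctggGATACTTTTGTGGAA
Their sum was 20.7, 21.8, 57.3 and 34.0 CPM at 0, 10, 30 and 360 min, so at 360 min BCL2L1-202 was high and BCL2L1-201 low, with a sum above that at 0 min. BCL2L1-203, another BCL-XL transcript, led at 0, 10 and 360 min with 63.6%, 60.1% and 59.6% of counts and held 33.4% at 30 min, where BCL2L1-201 led with 46.3%. BCL2L1-205 held 7.91% to 13.3%. Rows with the BH1 core as a group were at 83.2, 79.6, 104 and 83.6 CPM at 0, 10, 30 and 360 min, so their level at 360 min was near that at 0 min while the gene total was higher.

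In MCL1 a form that was rare elsewhere was high in the 10 min library alone. MCL1-202, the full form of 350 codons, was at 139, 150.4, 234 and 154 CPM at 0, 10, 30 and 360 min and held 81.5% to 98.4% of counts. MCL1-204 (197 codons, the extra short form) lacks 459 bases of the long coding exon at chr1:150578964-150579422, upstream of the BH3 core. It was at 0.211, 27.6, 0.253 and 0.925 CPM at 0, 10, 30 and 360 min. At 10 min it held 14.9% of counts and was 131-fold higher than at 0 min (44.5 to 638), a ratio whose lower library held 3 read pairs. MCL1-202 and MCL1-204 together were at 139, 178, 234 and 155 CPM, so at 10 min more of the gene's difference from 0 min was counted in MCL1-204 than in MCL1-202. MCL1-201 (271 codons), which skips the 248 bases holding BH1 and is known as the short, death-promoting form, was at 0.844, 3.42, 5.23 and 2.38 CPM, and was 6.19-fold higher at 30 min than at 0 min (3.33 to 12.5). Its share stayed small, at 0.599% to 2.12% of counts. MCL1-203, annotated without a coding sequence, was at 1.14, 3.18, 6.49 and 1.21 CPM. The junctions particular to the short forms, against MCL1-202, are shown with the downstream exon in capitals.
MCL1-204 junction: ggagggcgacttttgGCCACCGGCGCCAAG
MCL1-201 junction: agacggccttccaagGATGGGTTTGTGGAG

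A longer PMAIP1 form without BH3 was higher at 30 and 360 min while staying a small part of the gene. PMAIP1-202, the NOXA transcript of 54 codons, held 98.3%, 99.0%, 95.4% and 92.9% of counts at 0, 10, 30 and 360 min. PMAIP1-201 (136 codons) includes an exon of 151 bases at chr18:59900428-59900578 and its annotated frame does not read the BH3 core. It was at 0.721, 0.953, 4.81 and 7.38 CPM at 0, 10, 30 and 360 min. At 360 min it was 10.2-fold higher than at 0 min (5.49 to 22.6), and its share was 6.61% at 360 min, against 0.869% at 0 min. The junctions below share the upstream exon, in lower case.
PMAIP1-201 junction: cgcgggctccagcagGACCGGCGGGTACGG
PMAIP1-202 junction: cgcgggctccagcagAGCTGGAAGTCGAGT

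In the other members the same transcript led in most libraries. BID-203 (99 codons, without BH3) led in BID with 47.4% to 54.4% of counts, ahead of BID-215 (195 codons, full BID) with 31.2% to 40.4%, and the in-frame BH3 share was 42.1%, 33.5%, 40.3% and 39.7% at 0, 10, 30 and 360 min. BAX was divided between BAX-201 (218 codons, BAX beta) with 30.8% to 43.8% and BAX-202 (192 codons, BAX alpha) with 33.3% to 42.1%, and the retained-intron row BAX-207 held 9.39% to 13.8%. BAK1-202 held 94.8% to 99.0% of BAK1. BCL2-202 held 64.2% to 78.1% of BCL2, with BCL2-201 at 10.8% to 23.4% and BCL2-203 at 11.1% to 19.2%. Measured as the percent of counts that would have to lie in other transcripts to match 0 min, BCL2L11 differed by 63.8% at 10 min and 65.6% at 30 min, BBC3 by 43.2% and 53.2%, BCL2L1 by 5.39% and 32.5%, MCL1 by 17.0% and 3.35%, BAX by 13.9% and 8.19%, BID by 11.96% and 5.49%, and BCL2 by 9.26% and 13.3%. BMF (3.48% and 4.26%), PMAIP1 (0.787% and 2.96%) and BAK1 (0.869% and 0.7003%) differed least at 10 min. At 30 min BAK1, PMAIP1 and MCL1 differed least. The median of all genes with enough counts was 11.7% at 10 min and 10.7% at 30 min. At 360 min BCL2L1 differed by 19.8% and BBC3 by 11.9%, beside a median of 10.4%, and BCL2L11 was below the count needed.

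Genes around the family were read from 7 lists. A gene of a list was counted where it reached 1 CPM in some library. Of all genes compared with 0 min, 14.5%, 6.8% and 6.59% were past the size rule at 10, 30 and 360 min. Each count below is to be read beside these shares, and none was tested against them. Across the lists, 14 genes were past the size rule against 0 min at some time. Of these, 12 had an assembly locus of their own, and over the whole locus, assembled models included, 5 were past the rule (BNIP3L, BIRC5, CFLAR, FOXO4 and E2F1, whose loci hold no such model) and 7 were not, among them BOK, CASP2, BIRC6, TRADD, MAPK8 and CUL5. For CASP2, TRADD and CUL5 the direction was the other one over the whole locus, so their values below describe the annotated rows alone. BCL2L2 and GSK3A had no locus of their own.

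**Figure D5:**
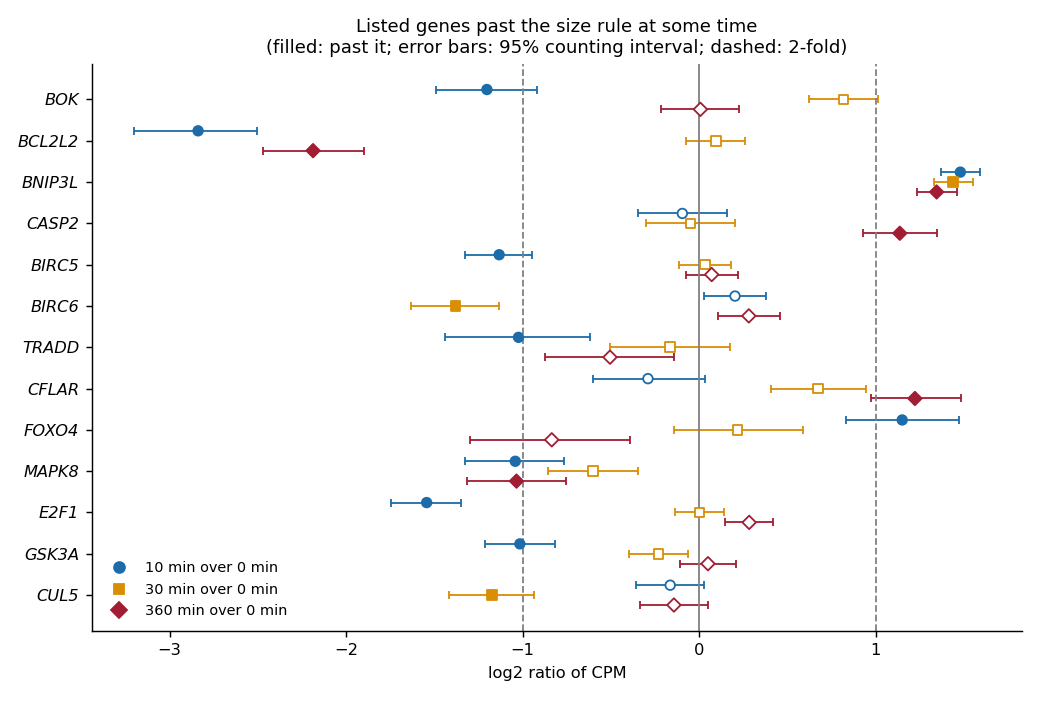
Log2 ratio of CPM over 0 min (horizontal axis) at 10 min (blue circles), 30 min (yellow squares) and 360 min (red diamonds) for 13 of the 14 listed genes past the size rule at some time, with 95% counting intervals and dashed lines at 2-fold. Filled symbols are past the rule; BCL2L2 was 7.15-fold lower at 10 min and BNIP3L was higher at all 3 times, while over the whole locus CASP2, TRADD and CUL5 had the other direction.

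Of 13 other BCL2 family genes, 8 were measured, and 3 of 8 were past the rule at 10 min, 1 of 7 at 30 min and 2 of 8 at 360 min. The shares of all genes compared were 14.5%, 6.8% and 6.59%. Their median log2 ratio was -0.20 at 10 min, 0.13 at 30 min and 0.03 at 360 min, beside 0.02, -0.0096 and -0.0013 for all measured genes. BCL2L2, the gene of the guardian BCL-W, was at 40.8, 5.70, 43.6 and 8.96 CPM at 0, 10, 30 and 360 min. It was low in the 10 min library (7.15-fold lower than 0 min, 5.67 to 9.20) and in the 360 min library (4.55-fold lower, 3.73 to 5.55). It is uncertain, because 19.4% of its exon bases also belong to the readthrough gene BCL2L2-PABPN1. BNIP3L, a mitophagy receptor with a BH3-like segment, was at 64.0, 179, 174 and 163 CPM, or 2.79-fold (2.59 to 3.02), 2.71-fold (2.51 to 2.93) and 2.54-fold (2.35 to 2.75) above 0 min at 10, 30 and 360 min. BOK, a relative of the effectors, was at 24.5, 10.6, 43.2 and 24.6 CPM, 2.30-fold lower at 10 min than at 0 min (1.89 to 2.80) in its annotated rows, and at 0.590 of 0 min (0.515 to 0.677) over its whole locus.

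Downstream of the pore, 1 of 15 apoptosome and caspase genes was past the rule at 10 min, 0 of 15 at 30 min and 1 of 14 at 360 min, with median log2 ratios of -0.09, 0.07 and -0.07. CASP2, an initiator caspase linked to DNA damage, was at 19.1, 17.9, 18.5 and 42.0 CPM, 2.20-fold higher at 360 min than at 0 min (1.90 to 2.55) in its annotated rows, and at 0.852 of 0 min (0.762 to 0.953) over its whole locus. Among the 7 IAP genes, whose products block caspases or belong to the same protein family, 5 could be compared at each time, and 1, 1 and 0 were past the rule at 10, 30 and 360 min, with medians of -0.30, -0.14 and 0.15 over the measured genes. BIRC5, the survivin gene of dividing cells, was at 52.4, 23.9, 53.6 and 55.1 CPM, 2.19-fold lower at 10 min than at 0 min (1.92 to 2.50). BIRC6, a large ubiquitin ligase gene, was at 35.2, 40.6, 13.5 and 42.8 CPM, 2.60-fold lower at 30 min than at 0 min (2.20 to 3.10) in its annotated rows, and at 0.819 of 0 min (0.769 to 0.873) over its whole locus.

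In the death receptor list, 7 of 10 genes were measured, and 1, 0 and 1 were past the rule at 10, 30 and 360 min, with medians of -0.29, 0.12 and 0.05. TRADD, an adaptor of the TNF receptor, was at 11.1, 5.47, 9.91 and 7.83 CPM, 2.03-fold lower at 10 min than at 0 min (1.54 to 2.71) in its annotated rows, and at 1.17 of 0 min (1.03 to 1.32) over its whole locus. CFLAR, which encodes the caspase-8 inhibitor FLIP, was at 13.3, 10.8, 21.1 and 30.9 CPM, 2.33-fold higher at 360 min than at 0 min (1.97 to 2.80). Of the factors and kinases known to act on BH3-only genes, 14 of 15 were measured and 12 compared, with 3, 0 and 1 past the rule and medians of -0.04, 0.0048 and 0.11. E2F1, a factor of S phase, was at 58.6, 20.1, 58.7 and 71.3 CPM, 2.92-fold lower at 10 min than at 0 min (2.55 to 3.35). FOXO4, a forkhead factor, was at 8.44, 18.7, 9.82 and 4.73 CPM, 2.22-fold higher at 10 min than at 0 min (1.78 to 2.78). MAPK8, which encodes JNK1, was at 23.1, 11.2, 15.2 and 11.3 CPM, 2.06-fold lower at 10 min (1.70 to 2.51) and 2.05-fold lower at 360 min (1.69 to 2.49) than at 0 min in its annotated rows. Over its whole locus it was at 0.679 of 0 min at 10 min (0.592 to 0.780) and at 0.813 at 360 min (0.711 to 0.924).

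Of 15 genes acting on the turnover of MCL1 and BIM protein, 14 were compared, and 1, 1 and 0 were past the rule at 10, 30 and 360 min, with medians of 0.08, -0.15 and -0.04. GSK3A, a kinase that marks MCL1 for degradation, was at 45.0, 22.3, 38.4 and 46.6 CPM, 2.02-fold lower at 10 min than at 0 min (1.76 to 2.32), and 11.6% of its exon bases overlap another gene, so it is uncertain. CUL5, a ubiquitin ligase scaffold, was at 33.4, 29.9, 14.8 and 30.3 CPM, 2.26-fold lower at 30 min than at 0 min (1.91 to 2.67) in its annotated rows, and at 1.31 of 0 min (1.16 to 1.48) over its whole locus. None of 10 outer membrane partners of BAX and BAK was past the rule at any time against 0 min, with medians of -0.20, 0.04 and -0.0018. The largest ratios of that list were at 10 min, where MTCH2, the mitochondrial receptor of cleaved BID, was at 47.1 CPM against 80.3 CPM at 0 min (0.587, 0.533 to 0.647). TOMM22, an import receptor that BAX can use, was at 68.4 CPM at 10 min against 105 CPM at 0 min (0.653, 0.601 to 0.708), and MFN2, a mitofusin, at 178 CPM against 261 CPM (0.683, 0.649 to 0.719).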

How the data were processed

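The authors deposited estimated counts per assembled gene and per transcript, unscaled whole numbers, 1 column per library. The submitters' processing notes name GRCh38 together with HISAT2 and DESeq2. Not given in the sources used here are the counting tool, the annotation release and the use of strand.

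Transcript rows were matched to GENCODE 29 (197268 of 215876 rows with an ENST identifier, the rest holding at most 0.0841% of counts), summed per gene and scaled to CPM by column totals. Where a locus has 1 transcript, 31.7% of 13381 values from 1 to 24 were multiples of 4 (25% under even spacing), and on that limited basis 4 counts were taken as 1 read pair. The factor is uncertain, and all read pair numbers and intervals rest on it. With 1 count per read the ratios stay the same and the intervals are narrower, and no member changed its side of the size rule. Intervals are 95% exact (Clopper-Pearson, conditional binomial for ratios) from SciPy 1.17.1 and cover counting error only, since the labels record no molecular identifiers. A library at 0 entered a ratio at 3 read pairs. The size rule was also run on simulated libraries drawn with counting error alone, the error that the intervals assume. That run cannot speak to differences between cultures or libraries. With 1 library per time no count test could be run. TMM factors came from edgeR 4.0.16. Python 3.11.15, pandas 2.3.3, Biopython 1.88 and matplotlib 3.10.9 were used.

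The members and lists were chosen with earlier results of these data known. Named are all 10 members, listed genes past the size rule against 0 min, or up to 3 with the largest log2 ratio where a list had none, and transcripts with at least 10% of a gene's counts. MCL1-201, MCL1-203 and PMAIP1-201 were added after their values were seen. A listed gene past the rule is not reported here. Alternatives were other scalings, the whole assembly locus, protein-coding or most counted rows only, 1 count per read, no CPM minimum and another reference library.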

Additional observations from a re-analysis of the deposited data

Results flagged for a closer look

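BMF moved in opposite directions against 0 min, with a log2 ratio of 1.13 at 10 min, -0.72 at 30 min and -0.71 at 360 min. It was set apart because the only library at 10 min and those at 30 and 360 min lie on opposite sides of 0 min. The difference between the times was not tested against replicates, since there are none, and the 3 ratios share the 0 min library.

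An unannotated model assembled at the BCL2L1 locus, not used in the gene sums, was at 6.56 CPM at 360 min against 0.651 CPM at 0 min, or 10.1-fold higher (5.20 to 23.3). It was at 0.342 CPM at 10 min and 0.561 CPM at 30 min. It drew attention as a signal in data outside the gene sums that was above the level of the untreated library. The difference has no replicate check, and a share in the higher BCL2L1-202 at 360 min was not tested.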

How the results depend on the processing

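Of 375 member log2 ratios under other settings, 345 stayed within their interval and on their side of the size rule, and none past the rule changed sign. Part of this was fixed beforehand. With 1 count per read (50 ratios) and with no CPM minimum (50 ratios) a member's ratio cannot move. In the whole-locus setting 7 members hold no assembled model, so their ratios are the same by construction. With the most counted row only, 2 members were past the rule at 10 min (BCL2L11 at -2.20 and BMF) and 1 at 30 min (BCL2L11 at -1.77), each against 0 min. In that setting BCL2L11 was at -5.08 for 360 against 0 min. For 360 against 30 min it was at -3.31 and below 5 CPM. BBC3 was past the rule there as higher, with BBC3-204 at 7.20 CPM at 360 min and 3.55 CPM at 30 min. The main log2 ratio of BBC3 there was -0.20, of the other sign. With the median of the other 3 libraries as reference, BMF at 10 min was at 1.84, and PMAIP1 and BID at 10 min, BCL2L11 and BAX at 30 min, and BBC3 and MCL1 at 360 min, none of them past the rule, had the other sign. So did, with the most counted row, BBC3 at 10 min (-0.27) and 30 min (-0.78) and BCL2L1 at 30 min (-0.63) against 0 min. BAX did too in that setting, with BAX-201 at 40.9 CPM at 30 and 360 min against 39.9 CPM at 0 min. Small differences of the other sign were also those of BAK1-202 at 360 min (56.7 against 56.9 CPM) and BCL2-202 at 30 min (12.2 against 11.1 CPM). Other comparisons between treated libraries are not listed for that setting. All genes past the rule numbered 1730, 784, 759, 1714 and 776 for 10, 30 and 360 against 0 min, 30 against 10 min and 360 against 30 min. They numbered 1118, 306, 198, 1136 and 261 over whole loci and 2713, 1849, 1816, 2819 and 1874 with the most counted row, and the cause was not tested. With no CPM minimum they numbered 3599, 1925, 1726, 3483 and 1812, a setting that only adds genes below 5 CPM in both libraries. Over the whole locus, added after the data were seen, the log2 ratio was -0.23 for CASP2 at 360 min, 0.22 for TRADD at 10 min and 0.39 for CUL5 at 30 min, the other sign in each case.

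No paired analysis was possible because each time has 1 library and no group has replicates. Counting intervals do not cover differences between cultures or libraries. BCL2L11 had 32 read pairs at 360 min, too few to order its transcripts there.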

Other observations

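Rows of BAX annotated as retained introns held 15.2%, 20.1%, 16.0% and 13.1% of BAX counts at 0, 10, 30 and 360 min. They were highest at 10 min, where the BAX total was lowest (83.7 CPM). BAK1-203, a BAK1 transcript that keeps the BH3 core and lacks the BH1 core, was at 1.00, 1.29, 0.488 and 3.14 CPM at 0, 10, 30 and 360 min, so its share of BAK1 was 5.25% at 360 min (3.80% to 6.97%) against 1.73% at 0 min (0.932% to 2.83%). BAX-203 and BAX-213, coding rows without the BH3 core, together held 6.80%, 3.12%, 1.88% and 5.01% of BAX counts at 0, 10, 30 and 360 min. BMF-AS1, which overlaps BMF on the other strand, had no counts in any library, and 8.46% of BMF exon bases lie under it.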
